A study of Bos taurus with 12 samples.

Results

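Myostatin, the activins, their antagonist follistatin and their receptors were followed in bovine endometrium by taking each array probe set that the platform annotation assigns to the single gene symbol MSTN, FST, INHBA, INHBB, ACVR1, ACVR2A or ACVR2B. This gave 8 probe sets out of 24016, which cover 6 of the 7 genes, where the whole array names 9155 genes this way: MSTN and ACVR1 have 2 each, FST, INHBA, ACVR2A and ACVR2B have 1 each, and INHBB has 0, so INHBB was not analysed here. The tissue was biopsied from Simmental heifers in the oestrous cycle before an embryo was transferred to them, and Affymetrix arrays measured the RNA. Of the 4 groups with 3 arrays each, CDd14 and NPd14 were sampled at day 14 and CDd7 and NPd7 at day 7. CD heifers later delivered a calf, and NP heifers returned to heat without a pregnancy. Every array holds an RNA pool, and neither the number of heifers in a pool nor whether pools share heifers is known here, so p-values measure the spread between pools. No age is stated.

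Myostatin and the activins are secreted ligands of the transforming growth factor beta family. They bind a type II receptor, ACVR2A or ACVR2B, which recruits a type I receptor, and the complex phosphorylates SMAD2 and SMAD3, which enter the nucleus with SMAD4. Follistatin binds these ligands outside the cell and keeps them from the receptor. Myostatin is best known for limiting skeletal muscle growth, and its loss gives double-muscled cattle, while activins and follistatin are known from the ovary, the pituitary and the decidualizing uterus.

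Values are the deposited log2 intensities, on which a step of 1 is a doubling, and levels of different probe sets are not set against each other. Tests covered the 13449 probe sets that exceeded 4 on 3 or more of the 12 arrays. Only 3 of the 8 member probe sets were kept, 1 of the MSTN sets and 1 of the ACVR1 sets, called the bright sets here, and the ACVR2B set. The other 5 were measured but lay under this level on at least 10 arrays, so their differences are given as values. The epithelial markers listed for the endometrium were above it for 8 of 9 genes on the arrays, and EPCAM, an epithelial adhesion protein, lay between 15.3 and 15.5. Of 17 skeletal muscle markers 3 were above it (MYH1, MYH7 and ENO3), while ACTA1, the muscle actin, and the muscle regulators MYOD1, MYOG, MYF5 and MYF6 stayed under it on all 12 arrays. Of the 3 probe sets of MYH7, a slow myosin, 1 lay between 11.9 and 13.7 and the others between 2.07 and 2.66. Smooth muscle markers were above the filter for 0 of 7 genes, ovarian or luteal markers for 0 of 6 and endothelial markers for 1 of 7 (CLDN5), and HOXA10, a uterine stromal factor, was under it. Among the ovarian or luteal markers, STAR, the steroidogenic cholesterol carrier, nonetheless read 5.67 in NPd14 pool 1 and 7.69 in NPd14 pool 3, against 3.01 to 3.67 in the other 10 pools. Fewer cells of a type, less RNA per cell and a probe set that reads its transcript poorly cannot be told apart in these pools. The counts of markers above the filter are therefore not a measure of cell content.

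MSTN, the ligand, varied widely between pools of the same group. Its bright probe set read 10.04, 9.16 and 11.003 in CDd14 pools 1 to 3, against 10.15, 9.78 and 3.30 in NPd14 pools 1 to 3. It read 5.93, 9.51 and 8.13 in CDd7 pools 1 to 3, against 3.39, 8.38 and 3.23 in NPd7 pools 1 to 3. Thus 9 of 12 pools were above 4, and the 3 that were not were all NP pools: NPd14 pool 3, NPd7 pool 1 and NPd7 pool 3. The CD pools lay between 5.93 and 11.003 without exception, but each NP group held at least 1 pool that reached into the range of the CD pools of its day.

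The group means ran from 10.07 ± 0.92 in CDd14 through 7.86 ± 1.80 in CDd7 and 7.74 ± 3.85 in NPd14 to 4.997 ± 2.93 in NPd7 (log2, SD, n = 3). The pools of each neighbouring pair in this order overlapped, and in none of the 4 pairwise comparisons were the groups free of overlap. CD minus NP was 2.86 ± 1.90 at day 7 (SE, limma adjusted p = 0.328, 95% interval -1.37 to 7.10) and 2.32 ± 1.90 at day 14 (limma adjusted p = 0.862, interval -1.91 to 6.56). The difference of day 14 and day 7 was 2.21 in CD (limma adjusted p = 0.415) and 2.75 in NP (limma adjusted p = 0.504), with the same SE. Over all kept probe sets, deviations of same-numbered NP pools correlated at 0.16, 0.62 and 0.51 for pools 1 to 3. The labels state no pairing. By pool number, MSTN was higher at day 14 by 6.76, 1.40 and 0.08. With the pool number as a block in the NP arrays alone the difference still missed the threshold (limma adjusted p = 0.329). The test of whether the day difference itself differed between outcomes gave -0.54 ± 2.69 (limma adjusted p = 0.938). Exact two-sided permutation tests of the 4 pairwise differences gave p = 0.3, 0.5, 0.2 and 0.3 in the order given here, where 0.1 is the smallest p that 3 against 3 pools allow. After Benjamini-Hochberg adjustment over the 32 tests of all members these were 0.686, 0.762, 0.686 and 0.686.

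Single pools set the size of these differences. Without NPd14 pool 3 the difference of CD and NP at day 14 was 0.10 (limma adjusted p = 0.995), and that of day 14 and day 7 in NP was 4.97 (limma adjusted p = 0.170). Without NPd7 pool 2, the 1 bright pool of its group, CD minus NP at day 7 was 4.55 (limma adjusted p = 0.123) and the day difference in NP 4.44 (limma adjusted p = 0.345). Without CDd7 pool 1 the day difference in CD was 1.25 (limma adjusted p = 0.708). MSTN missed the threshold in all of the fits tried, while its difference stayed above 0 in the 4 pairwise comparisons.

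**Figure D1:**
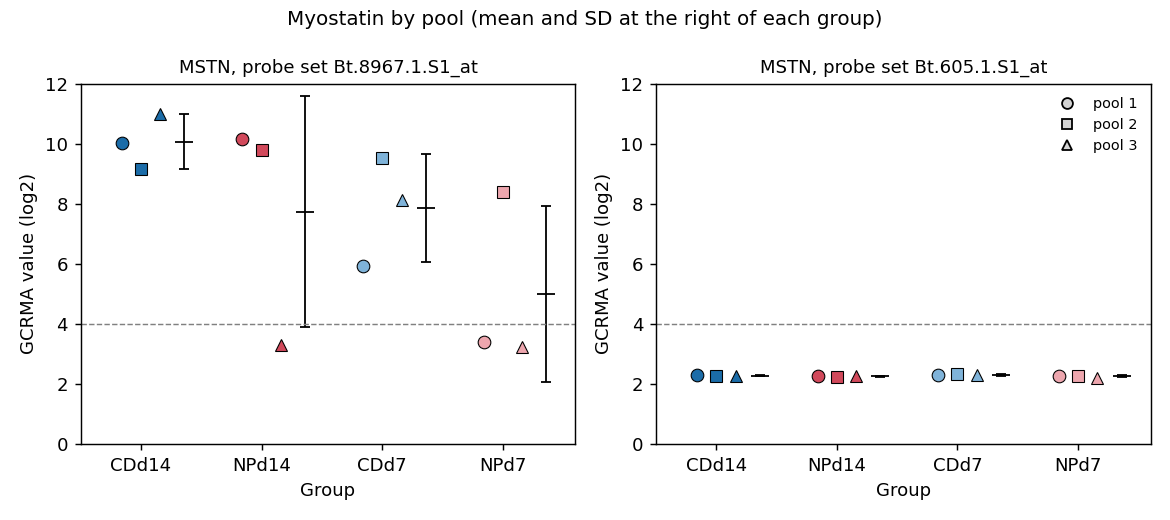
Log2 GCRMA values of the 2 MSTN probe sets (vertical axes) in each pool of the 4 groups (horizontal axes). Markers are pools, bars at the right of each group are mean and SD (n = 3), and the dashed line is the filter at 4. The left panel ranges from 3.23 to 11.003, and the right panel is flat at 2.22 to 2.33.

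The spread of MSTN was among the largest of the kept probe sets. The within-group SD of the bright probe set, pooled over the 4 groups, was 2.62, against a median of 0.259 over the 13449 kept probe sets, and 11 of these had a larger one. Among the 1794 kept probe sets whose mean lay within 0.5 of that of MSTN, the median SD was 0.291 and MSTN stood at the 99.9th percentile. The SD was lowest in CDd14 (0.92) and highest in NPd14 (3.85). The bright ACVR1 set, by contrast, had a pooled SD of 0.119 (9.0th percentile of all kept probe sets) and ACVR2B 0.289 (57.0th percentile). FST, which missed the filter and was not ranked, had a pooled SD of 2.78, above that of MSTN.

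The other, dim MSTN probe set did not show this pattern. It read 2.30, 2.27 and 2.28 in CDd14, 2.27, 2.22 and 2.27 in NPd14, 2.29, 2.33 and 2.29 in CDd7, and 2.28, 2.28 and 2.22 in NPd7. Its whole range over the 12 pools was 0.112, where that of the bright set was 7.78. Across the 12 arrays the sets had a Pearson's r of 0.26 and a Spearman's rho of 0.22, given as a description since both sets were read from the same 12 hybridizations. Which transcripts each set detects was not analysed here. Every statement on MSTN level here therefore rests on 1 of the 2 probe sets.

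The pattern of the bright MSTN set was most like that of PTGS2, the inducible cyclooxygenase that makes the precursor of prostaglandins, among 6780 other kept genes (r = 0.98, rho = 0.94 over 12 arrays). PTGS2 read 11.78, 9.80 and 11.75 in CDd14 and 11.23, 11.58 and 1.80 in NPd14, while it read 6.78, 9.27 and 8.61 in CDd7 and 2.17, 8.77 and 3.25 in NPd7. The 3 pools that were low for MSTN were also the 3 lowest for PTGS2. Over the 9 pools with MSTN above 4, r was 0.93. The next genes were ERLIN2, an endoplasmic reticulum protein (r = 0.97), CKMT1A, a mitochondrial creatine kinase (0.95), CPT2, which acts in mitochondrial fatty acid import (0.93), and TRPC6, a cation channel (0.93). Over the 9 pools these were 0.93, 0.86, 0.96 and 0.77. ERLIN2 and CPT2 followed MSTN within narrow ranges, 9.78 to 10.33 and 8.15 to 8.63, while TRPC6 ran from 3.37 to 9.41.

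Other probe sets of these genes followed MSTN less closely: the second kept PTGS2 set had r = 0.70, the second ERLIN2 set 0.41, and the PTGS2 set that stayed under the filter, at 2.31 to 2.48, 0.31. The other TRPC6 sets, which also missed the filter, had r = 0.09 and 0.44. PTGS2 had a within-group SD of 3.40, rank 3 of all kept probe sets, and its differences of CD and NP were 3.49 ± 2.47 at day 7 and 2.90 ± 2.47 at day 14 (SE, limma adjusted p = 0.357 and 0.867). Between days in CD it did not pass (2.89, limma adjusted p = 0.410), whereas the second kept PTGS2 set rose by 3.82 on the log2 scale (limma adjusted p = 0.0469).

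**Figure D2:**
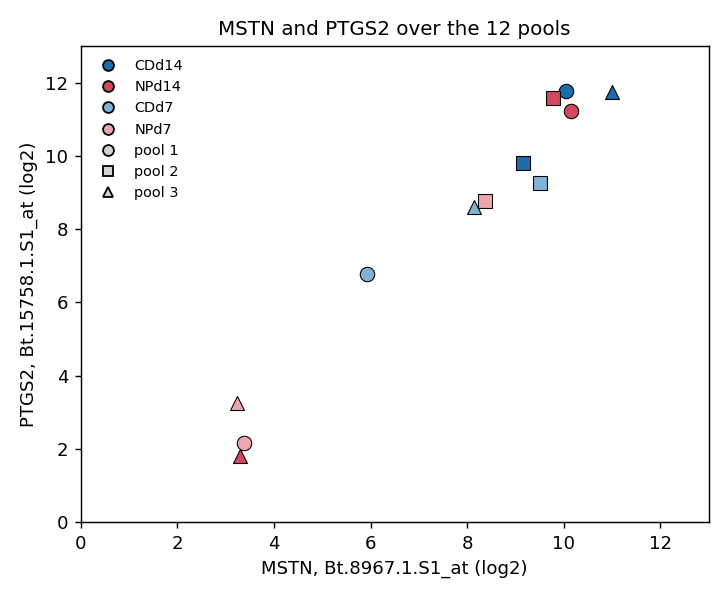
Log2 values of PTGS2 (vertical axis) against the bright MSTN probe set (horizontal axis) in the 12 pools; colour gives the group and shape the pool number. NPd14 pool 3 and NPd7 pools 1 and 3 lie at the lower left with both genes under 4, and the other 9 pools run up to 11.003 for MSTN and 11.78 for PTGS2.

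The mean log2 value of the epithelial marker list moved with MSTN and its summed level less so, but the listed genes did not move together. CLDN4 had group means of 10.85 in CDd14, 10.07 in NPd14, 9.52 in CDd7 and 8.53 in NPd7. CDH1 and ELF3 were also lowest in NPd7, whereas KRT18 and KRT19 were highest there, at 11.58 and 13.18. CLDN7 was lowest in NPd14, and KRT8, EPCAM and MUC1 were lowest in CDd7. The mean over 9 genes was 10.40, 10.54 and 10.27 in CDd14 pools 1 to 3, against 10.25, 10.33 and 9.90 in NPd14, and 10.10, 10.20 and 10.07 in CDd7, against 9.86, 10.05 and 9.98 in NPd7. The 3 MSTN-low pools had the 3 lowest means, and the correlation with MSTN over the 12 pools was 0.81. For the summed level it was 0.47, CDd7 pools 1 and 2 were lowest at 15.77 and 15.78, and the MSTN-low NPd7 pools 1 and 3, at 15.88 and 15.91, lay above all CDd7 pools. The sum on the log2 scale ranged over 15.997 to 16.04 in CDd14, 15.81 to 16.002 in NPd14, 15.77 to 15.84 in CDd7 and 15.83 to 15.91 in NPd7, and KRT8 was its 1 measured gene under the filter. Stromal markers (8 of 11 above the filter, COL1A1, PDGFRB and HOXA10 under it) had summed levels of 11.18 to 12.22 in CDd14, 12.19 to 12.71 in NPd14, 10.58 to 11.56 in CDd7 and 12.72 to 14.15 in NPd7 (r = -0.51 with MSTN). For skeletal muscle markers, the tissue where myostatin is best known, the sums were 12.10 to 12.23 in CDd14, 12.01 to 12.52 in NPd14, 13.43 to 13.74 in CDd7 and 12.91 to 13.37 in NPd7 (r = -0.35). The muscle sums follow the 1 bright MYH7 set, whose group means were 12.12, 12.26, 13.54 and 13.10 in the same order. They are therefore not a level of the whole list. The 3' to 5' difference of the GAPDH control transcript, which can rise with RNA degradation, was 3.05 ± 0.16 in CDd14, 3.51 ± 0.22 in NPd14, 2.67 ± 0.31 in CDd7 and 3.04 ± 0.27 in NPd7 (log2, SD, n = 3). It was 3.68, 2.75 and 3.28 in NPd14 pool 3 and NPd7 pools 1 and 3, the first being the highest of the 12. The DAP, LYS and PHE controls also had a higher 3' to 5' difference in NPd14 than in CDd7, so this order is not particular to GAPDH. The order is therefore not read here as a measure of degradation of the tissue RNA. In NPd14 the 3' to 5' difference was 5.35 to 5.57, 5.99 to 6.42 and 4.24 to 4.62 for these controls. In CDd7 it was 4.63 to 4.74, 5.54 to 5.73 and 3.83 to 3.97. The summed level of the ovarian or luteal markers was 7.85 in NPd14 pool 3, which is MSTN-low, and 6.23 in NPd14 pool 1, which is MSTN-bright, against 4.99 to 5.15 in the other 10 pools (r = -0.33 with MSTN). In these NPd14 pools the sum rests on STAR, since the other genes of the list reached 3.15 at most. The part of the marker levels and the control differences in the MSTN values was not tested.

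FST, the antagonist, was bright in 2 of the 12 pools, both from day 14. It read 10.33, 3.18 and 3.31 in CDd14 pools 1 to 3, against 3.13, 9.07 and 2.11 in NPd14 pools 1 to 3. At day 7 it read 2.12, 2.11 and 2.14 in CDd7, against 2.12, 2.17 and 2.10 in NPd7. CDd14 pool 1 and NPd14 pool 2 thus stood far above the rest, 1 in each outcome, and all 6 day 7 pools lay between 2.10 and 2.17. In CD the day 14 pools did not overlap the day 7 pools, with a difference of means of 3.49 and as in 28.2% of all probe sets, while NPd14 pool 3 lay within the day 7 range. Without CDd14 pool 1 the difference in CD was 1.12, and without NPd14 pool 2 that in NP was 0.49, against 2.64 with it. The exact two-sided permutation test gave p = 0.1 in CD, the smallest possible, and p = 0.3 in NP.

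The 2 FST-bright pools read 10.04 and 9.78 for MSTN, inside the range of the other bright MSTN pools. Over the 12 arrays FST and the bright MSTN set had r = 0.46 and rho = 0.77, given as a description. FST was under the filter in the other 10 pools. The genes most like FST over the 12 arrays were STAC, an adaptor protein (r = 0.99), SLAMF7, a receptor of lymphoid cells (0.95), LEF1, a transcription factor of the Wnt pathway (0.94), NR4A1, an immediate early nuclear receptor (0.93), and GLMP, a lysosomal membrane protein (0.93). These values rest largely on the 2 bright pools, and over the other 10 they were 0.77, 0.64, 0.86, 0.90 and 0.64. The other GLMP set, which missed the filter, had r = 0.05 with FST. LEF1 read 7.71, 5.98 and 5.81 in CDd14 and 6.23, 8.28 and 5.22 in NPd14, with its highest pools being the same 2, and 4.81 to 5.54 in the day 7 pools.

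INHBA encodes the beta A subunit, which pairs with itself to form activin A. It was dim throughout: 3.56, 3.30 and 3.37 in CDd14, against 3.52, 2.59 and 2.62 in NPd14, and 2.65, 2.44 and 2.30 in CDd7, against 2.55, 2.62 and 2.61 in NPd7. All 3 CDd14 pools and NPd14 pool 1 were above every day 7 pool, and the other NPd14 pools lay within the day 7 range. The difference of day 14 and day 7 was 0.95 in CD and 0.32 in NP. In a fit without the filter the difference in CD passed the threshold (0.95 ± 0.22, SE, limma adjusted p = 0.0323) and the NP difference did not (limma adjusted p = 0.732), and the test of the difference between the outcomes gave 0.63 ± 0.32 (limma adjusted p = 0.569). With values under 4 set to 4 the difference was 0. INHBA had its closest likeness in IL10RB, a cytokine receptor chain (r = 0.91), LSM4, an RNA-binding protein (0.89), RPH3AL (0.87), HS6ST1, a heparan sulphate sulphotransferase (0.87), and SERTAD1 (0.86).

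**Figure D3:**
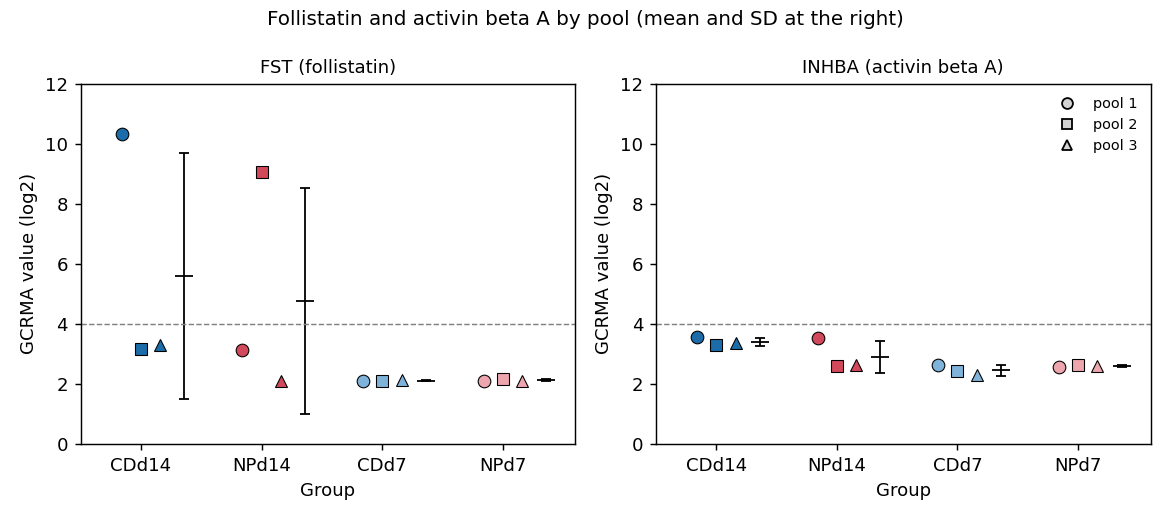
Log2 values of FST (left) and INHBA (right) in each pool (markers) of the 4 groups (horizontal axes), with mean and SD (n = 3) at the right of each group and the filter at 4 dashed. FST is at 10.33 in CDd14 pool 1 and at 9.07 in NPd14 pool 2 and under 3.4 elsewhere, and INHBA stays under 3.6 in every pool.

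None of the receptor probe sets that were tested passed. The bright ACVR1 set, for a type I receptor that bone morphogenetic proteins use together with the type II receptors, read 9.94, 10.19 and 10.04 in CDd14, against 9.86, 9.96 and 9.99 in NPd14, and 10.07, 10.30 and 9.97 in CDd7, against 10.11, 10.16 and 9.98 in NPd7. All groups overlapped, and the interval of CD minus NP was -0.24 to 0.29 at day 7 and -0.15 to 0.39 at day 14. The differences of day 14 and day 7 were -0.05 ± 0.12 in CD (interval -0.32 to 0.21) and -0.15 ± 0.12 in NP (interval -0.41 to 0.12). The second ACVR1 set was dim, from 2.64 to 2.89, with its highest value in CDd7 pool 2, the pool that was also highest for the bright set (r = 0.65 between the sets over 12 arrays, rho = 0.36).

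ACVR2B, a type II receptor for myostatin and activins, read 7.40, 7.04 and 7.21 in CDd14, against 7.44, 7.50 and 7.15 in NPd14. It read 7.60, 6.75 and 6.73 in CDd7, against 7.59, 7.32 and 7.37 in NPd7. CDd7 pools 2 and 3 were the lowest of the 12, while CDd7 pool 1 was the highest. CD minus NP was -0.40 ± 0.23 at day 7 (SE, limma adjusted p = 0.257, interval -0.90 to 0.10), the smallest adjusted p of any kept member, and -0.15 ± 0.23 at day 14 (limma adjusted p = 0.940). Without CDd7 pool 1 the day 7 difference was -0.68 and still missed the threshold (limma adjusted p = 0.0560). ACVR2A, the other type II receptor, read between 2.60 and 2.68 in all 12 pools, under the filter, so its flat values do not show its level.

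**Figure D4:**
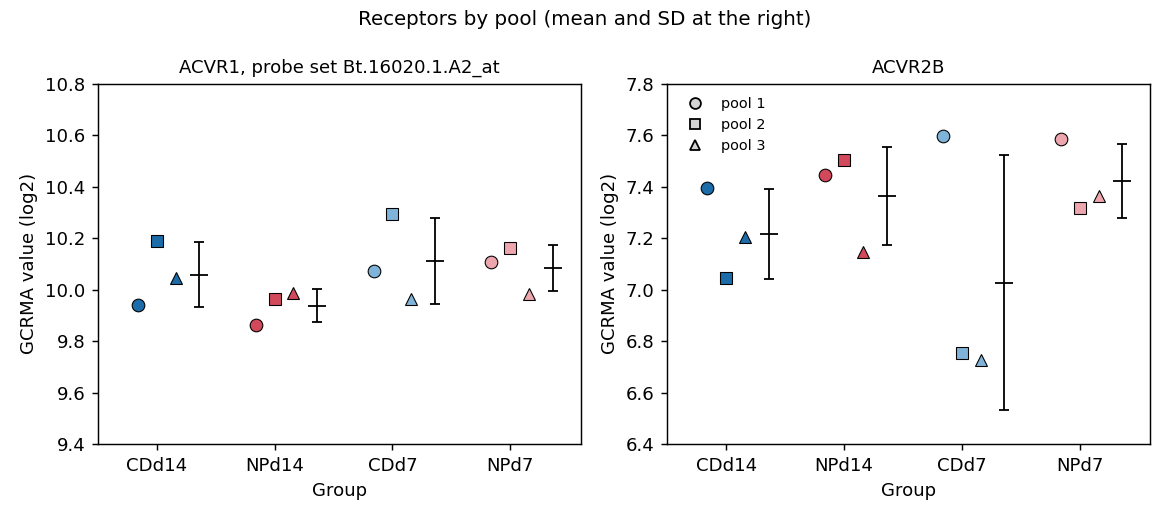
Log2 values of the bright ACVR1 probe set (left) and of ACVR2B (right) in each pool (markers) of the 4 groups (horizontal axes), with mean and SD (n = 3) at the right of each group; the vertical axes do not start at 0. ACVR1 lies between 9.86 and 10.30 in all groups, and ACVR2B spans 6.73 to 7.60 within CDd7 alone.

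Counted over the members, limma with Benjamini-Hochberg adjustment over the 13449 kept probe sets called 0 of the 3 tested probe sets in each of the 5 contrasts, and 0 at an unadjusted p under 0.05. Over all kept probe sets the share called for CD minus NP was 3.74% at day 7 and 0.0223% at day 14. For day 14 minus day 7 it was 24.0% in CD and 0.327% in NP (44 probe sets, against 21 with the pool number as a block in all arrays and 0 with it in the NP arrays alone), and 0% were called where the 2 day effects were set against each other. Groups of 3 pools were free of overlap in 1 of 8 member probe sets for CD minus NP at day 7 (the dim MSTN set, by a mean difference of 0.04), 0 of 8 at day 14, 2 of 8 for the day difference in CD (FST and INHBA) and 0 of 8 for that in NP. The shares over all 24016 probe sets were 21.5%, 8.65%, 28.2% and 13.8% in the same order, so the members' counts do not stand out from the background. The 3 kept members are too few for a share to be read from them.

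**Figure D5:**
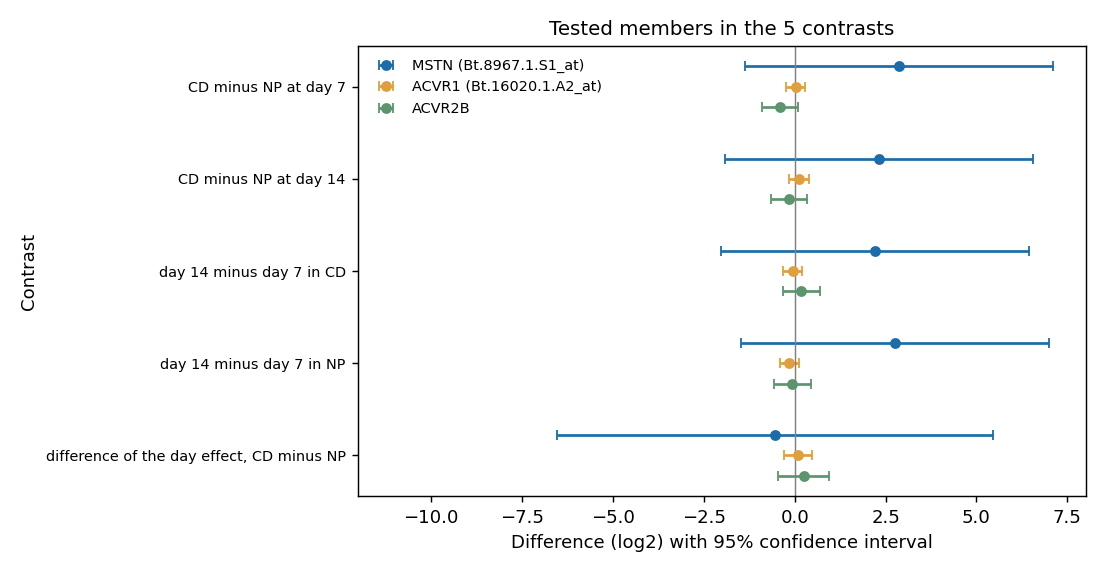
Differences (log2, horizontal axis) with 95% confidence intervals from limma for the 3 tested member probe sets in the 5 contrasts (vertical axis). All intervals include 0; those of MSTN reach from -6.53 to 7.10 over the contrasts, and those of ACVR1 stay between -0.41 and 0.47.

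Of 71 other gene symbols listed for the pathway, which include both CTGF and CCN2 for the same gene, 34 have a probe set and 20 passed the filter. In the comparison of day 14 with day 7 in CD, 4 of the 20 rose, 2 fell and 14 did not pass, with a median log2 difference of 0.00. Among all 6781 kept genes 669 rose and 964 fell in that comparison (24.1%), and the median was 0.00 as well. In the other 4 contrasts 0 of the 20 passed. Of all genes, 3.48% passed for the outcomes at day 7, 0.0147% for the outcomes at day 14, 0.133% between days in NP and 0% for the test of unequal day effects. At an unadjusted p under 0.05 the counts among the 20 were 5 for the outcomes at day 7 (25%, and 30.4% of all 6781 genes), 4 at day 14 (20%, and 6.34%), 9 between days in CD (45%, and 39.3%), 4 between days in NP (20%, and 16.5%) and 3 for unequal day effects (15%, and 14.5%).

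On the receptor side, BAMBI, a decoy receptor that dampens this signalling, rose 2.90-fold in CD, with 7.16, 7.30 and 7.54 in CDd14 against 5.76, 5.46 and 6.18 in CDd7 (limma adjusted p = 0.00509). The groups did not overlap. TGFBR2, the type II receptor for transforming growth factor beta, rose 2.02-fold, to 10.13 ± 0.41 in CDd14 against 9.12 ± 0.45 in CDd7 (log2, SD, n = 3, limma adjusted p = 0.0466). The third receptor above the filter, BMPR1A, did not pass. For CD minus NP, BAMBI had 0.06 ± 0.26 at day 7 and 1.05 ± 0.26 at day 14, and TGFBR2 had -0.96 ± 0.32 at day 7 (SE, limma adjusted p = 0.899, 0.398 and 0.0934).

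Among the intracellular mediators, SMAD3, which carries the myostatin and activin signal, rose 2.38-fold, to 7.88, 6.84 and 6.65 in CDd14 against 5.89, 5.76 and 5.96 in CDd7 (limma adjusted p = 0.0192). SMAD4, the shared partner of the SMADs, fell 1.44-fold to 12.32 ± 0.20 in CDd14, against 12.85 ± 0.18 in CDd7 (limma adjusted p = 0.0292). TGIF1, a corepressor that binds SMAD2, fell 1.69-fold to 10.71 ± 0.17 in CDd14, against 11.47 ± 0.21 in CDd7 (limma adjusted p = 0.0291), and its other kept probe set fell as well, by 1.31 on the log2 scale (limma adjusted p = 0.00927). SMAD2 and SMAD5 did not pass. Of these 5 SMADs and regulators 1 rose and 2 fell. TGIF1 is a corepressor, so the count gives no direction of the signalling.

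Of 7 measured target genes, CDKN1A, the cell cycle inhibitor p21, rose 3.46-fold in CD, to 9.16 ± 0.58 in CDd14 against 7.37 ± 0.54 in CDd7 (limma adjusted p = 0.0438). The remaining 6, ID1, ID2, ID3, CCN2, TGFBI and FBXO32, did not pass by the probe set that stands for each, although the other kept probe set of ID2 rose by 0.81 (limma adjusted p = 0.0437). ID1, a target of bone morphogenetic protein signalling, had the smallest p of the targets for CD minus NP at day 14, with 7.81, 8.38 and 9.14 in CDd14 against 10.49, 9.35 and 10.71 in NPd14 (difference -1.74 ± 0.41, limma adjusted p = 0.330). Its day difference in NP was 1.58 ± 0.41 (limma adjusted p = 0.132), and that in CD less that in NP was -2.65 ± 0.58 (limma adjusted p = 0.230).

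Ligands and binding proteins other than the members were sparse. TGFB2 and TGFB3 were the 2 ligands of 7 on the array that passed the filter, and neither was called. For CD minus NP at day 7, TGFB3 had -0.95 ± 0.59 (SE, limma adjusted p = 0.301), and TGFB2 had 1.23 ± 0.60 between days in CD (limma adjusted p = 0.156). INHA, whose alpha subunit turns activin subunits into inhibin, lay between 2.1 and 2.2. Of the binding and processing proteins, DCN (decorin, a matrix proteoglycan that can bind myostatin), LTBP2 and the protease FURIN were measured. DCN read 5.26, 4.64 and 5.52 in CDd7 against 7.92, 8.54 and 9.71 in NPd7, a difference of -3.58 ± 1.004 that did not pass (limma adjusted p = 0.0637), and it is also 1 of the stromal markers above.

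The count of 6 pathway genes between days in CD depended on single pools. BAMBI passed in 20 of 20 alternative fits and SMAD3 in 19, while TGFBR2 and CDKN1A passed in 10 each. The count was 1 without CDd7 pool 2, 2 without CDd7 pool 1 or CDd14 pool 3, and 3 without CDd14 pool 1 or 2. Over all 13449 kept probe sets the count fell as well, from 3231 to 1320 without CDd7 pool 2 and 2185 without CDd7 pool 1. It was 1673, 2226 and 2114 without CDd14 pool 3, 1 and 2, in that order. The drop is thus not particular to the pathway genes. The difference of the day effect between the outcomes was tested for each of the 20 genes and passed for 0, so the calls in CD do not show that CD and NP differed.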

How the data were processed

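RNA of 12 endometrial pools was hybridized to Affymetrix bovine arrays, 1 pool an array, per the labels' protocols. The deposited values are on the log2 scale and come from GCRMA, per the submitters' processing notes, which give no version. GCRMA subtracts background, so dim sets lie near a floor. Array medians were 4.89 to 5.06, and the number of arrays limits the precision.

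AFFX controls (112) were left out. Probe sets above 4 on at least 3 arrays were tested with limma 3.58.1 (R 4.3.3): 4 group means, 5 contrasts, 8 residual and 2.13 prior degrees of freedom, Benjamini-Hochberg adjustment, threshold 0.05, two-sided. The test was tried on simulated data whose spread was capped well under that of the bright MSTN set. The trial therefore does not tell how well the test finds differences in MSTN. A gene outside the members stands by its kept probe set of highest mean. Named were all members, called pathway genes or those of smallest p, and the 5 genes with the highest Pearson's r to MSTN, FST and INHBA; remarks on second probe sets followed their values. Members and lists were chosen with earlier results of these data known. Deviations of same-numbered pools from their group means correlated at 0.16, 0.62 and 0.51 between NPd14 and NPd7, so the numbers were taken to pair those groups, a reading from the data and not from the labels. In each other comparison at least 1 pair was under 0.1. In CDd14, 1 title carries conflicting numbers and was read by its replicate number. Alternatives were other filters, scalings, moderation, array subsets, a pool block, a floor and leaving out each array.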

Additional observations from a re-analysis of the deposited data

How the results depend on the processing

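The counts of called members stayed at 0 in every alternative except the fit without the filter, where it was 1 for the days in CD (INHBA). Under that fit, with 24016 probe sets adjusted over, 3 pathway genes passed in CD, and 2434 of all probe sets did. Leaving out 1 pool at a time gave 1 to 7 pathway genes between days in CD, 0 to 3 between days in NP (3 without NPd14 pool 2, 1 without NPd14 pool 3), 0 to 2 for CD minus NP at day 7 and 0 to 1 at day 14, the higher ends without NPd14 pool 2. The pathway counts were added to these alternatives after seeing the data. Directions turned only for uncalled values. The bright ACVR1 set for CD minus NP at day 7 was -0.0201 after quantile normalization and -0.0650 to 0.10 with 1 pool left out. With 1 pool left out it was -0.13 to 0.0380 between days in CD, ACVR2B was -0.13 to 0.0496 between days in NP, and the MSTN difference of the day effect was -2.76 to 0.66. FST, given as values only, turned most widely. With 1 pool left out its CD minus NP difference at day 14 was -1.53 to 2.99, and its difference of the day effect -1.52 to 2.99. Small differences of the dim MSTN, dim ACVR1 and ACVR2A sets turned in places too. The causes of these turns were not tested. Over all kept probe sets the count called with 1 pool left out was 1320 to 3732 between days in CD and 1 to 172 between days in NP. For CD minus NP it was 0 to 1676 at day 7 and 0 to 12 at day 14, so the background shares rest on single pools too. A floor at 4 set the differences of INHBA to 0.

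With the pool number as a replicate block over all arrays, 7 pathway genes and 0 members passed in CD, and 3676 of the 13449 kept probe sets did. In the NP arrays alone, a fit added after seeing the data, 0 of both passed between days with the block, and MSTN had an adjusted p of 0.329 (limma). The block changed no member's call. Over all groups, 11 of 18 same-numbered pairs had r over 0.1, from -0.26 to 0.62, and 9 of 12 arrays correlated best with their own number, a hint of pairing from the data that goes beyond NP. The 3 arrays a group and values near background limit what FST, INHBA, ACVR2A and the dim sets can show.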
